A study of Mus musculus with 2 samples.

Results

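The cells described here are astroglia of the newborn mouse pallium that carry transcripts of Naaa, Ecrg4, Veph1 and Tfap2c. A barcode (the tag of a droplet, read as a cell) was kept where it had at least 500 detected genes and at most 10% of its unique molecular identifiers (UMIs, counted transcripts) in mitochondrial genes. Members had at least 1 UMI of 3 or all 4 of the marker genes, at least 1 UMI of Slc1a3, no UMI of Mki67 or Top2a, and at most 2 of Gfap, Serpinf1, Pla2g3 and Nog detected. This gave 139 members of 22193 kept barcodes, 68 of 11228 in the library of replicate 1 and 71 of 10965 in that of replicate 2. The share was 0.606% (exact Clopper-Pearson 95% interval 0.471 to 0.767) and 0.648% (0.506 to 0.816), intervals that cover counting error only.

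The series holds 2 mouse libraries of a single group. Wild-type embryos were labelled at embryonic day 12 with EdU, a thymidine analogue taken up by cells that copy their DNA, and the animals were killed at postnatal day 3. The dissected pallium, from which cortex and hippocampus arise, was pooled and dissociated, and living EdU-positive cells within the brightest 10% were sorted before droplet capture with the 10x Genomics 3' chemistry. The labels do not say whether the libraries came from separate pools of animals. The p-values below therefore set differences only against the spread of these samples, and that spread may be technical.

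Radial glia are the dividing stem cells of the embryonic forebrain; they line the ventricle, give rise to neurons and then turn into astrocytes, ependymal cells or the stem cells of the adult brain. Slc1a3 encodes a glutamate transporter of radial glia and astrocytes. Aqp4 encodes the water channel of astrocyte endfeet. Tfap2c encodes AP-2 gamma, a transcription factor of cortical radial glia and basal progenitors, Veph1 is named for its expression in the ventricular zone, Ecrg4 encodes a secreted peptide precursor, and Naaa encodes a lysosomal hydrolase of N-acylethanolamines, a family of lipid signals.

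The class compared first, called other astroglia, had at least 2 UMIs each of Aqp4 and Slc1a3 and at most 1 of the 4 marker genes, and numbered 1653 and 1683 cells in replicates 1 and 2. Gfap astroglia had at least 3 of Gfap, Serpinf1, Pla2g3 and Nog, at most 1 of the 4 marker genes, Slc1a3, and no Mki67 or Top2a, and numbered 272 and 253 cells. Of the other astroglia, 234 and 215 cells also met the Gfap gate. The median cell had 8257 and 8006 UMIs among members, 9611 and 10609 among other astroglia, and 8456.5 and 9382 among Gfap astroglia. Levels are in CPM, for which the summed cells of a class in 1 library were set to a total of 1000000 UMIs.

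The members were chosen by the UMIs of the 4 marker genes, so the levels of these genes are a description and were not tested. Naaa stood at 188 CPM in both libraries of the members and at 13.1 and 12.9 CPM in other astroglia. Ecrg4 stood at 281 and 199 CPM in members and 6.94 and 5.75 in other astroglia. Veph1 stood at 166 and 169 CPM against 11.5 and 11.9, and Tfap2c at 92.7 and 89.4 CPM against 0.593 and 0.616. Every gene was higher in both member sums than in either sum of other astroglia, and each was carried by many cells at low counts. The median member held 1 and 2 UMIs of Naaa (highest 10 and 5), 2 and 1 of Ecrg4 (highest 10 and 9), 1 of Veph1 in both libraries (highest 5 and 4) and 1 of Tfap2c in both (highest 3 and 4).

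Members differed in which genes were seen. All 4 genes were detected in 17 and 16 members, and exactly 3 in 51 and 55. Where a gene was missing, it was most often Tfap2c (23 and 32 cells), then Ecrg4 (14 and 12), while Naaa was missing in 8 and 5 and Veph1 in 6 and 6. These counts depend on depth: with every cell thinned to 2000 UMIs, the share of members with a UMI fell from 88.2% and 93.0% to 26.5% and 46.4% for Naaa, and from 66.2% and 54.9% to 17.6% and 20.3% for Tfap2c. A missing gene at this depth therefore does not show a cell without the transcript.

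In the mm10 annotation (GENCODE M21) Naaa lies at chr5:92257659-92278170 on the minus strand, Ecrg4 at chr1:43730602-43742578 on the plus strand, Veph1 at chr3:66053558-66296837 on the minus strand and Tfap2c at chr2:172549593-172558622 on the plus strand. All 4 are protein-coding genes whose exons overlap no other gene. Tfap2c was the only AP-2 gene with UMIs in the members: Tfap2a, Tfap2b, Tfap2d and Tfap2e stood at 0 UMIs in both libraries. Since an AP-2 factor is among the markers, the 250 bases before the RefSeq starts of Naaa, Ecrg4 and Veph1 (GRCm38.p6) are shown with matches to GCCNNNGGC, the palindromic motif of AP-2 factors that reads the same on both strands, in capitals, at chr5:92278182-92278431 for Naaa, chr1:43730352-43730601 for Ecrg4 and chr3:66296838-66297087 for Veph1.
Naaa: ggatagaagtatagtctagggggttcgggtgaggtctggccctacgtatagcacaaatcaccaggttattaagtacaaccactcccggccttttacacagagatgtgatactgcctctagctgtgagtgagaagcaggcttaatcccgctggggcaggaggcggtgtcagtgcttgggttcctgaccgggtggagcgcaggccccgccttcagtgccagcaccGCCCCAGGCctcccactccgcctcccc
Ecrg4: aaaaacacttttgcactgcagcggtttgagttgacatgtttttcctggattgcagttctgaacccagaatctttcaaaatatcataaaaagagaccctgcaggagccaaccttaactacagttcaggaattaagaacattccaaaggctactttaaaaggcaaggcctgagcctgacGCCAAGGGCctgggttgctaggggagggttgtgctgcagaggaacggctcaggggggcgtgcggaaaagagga
Veph1: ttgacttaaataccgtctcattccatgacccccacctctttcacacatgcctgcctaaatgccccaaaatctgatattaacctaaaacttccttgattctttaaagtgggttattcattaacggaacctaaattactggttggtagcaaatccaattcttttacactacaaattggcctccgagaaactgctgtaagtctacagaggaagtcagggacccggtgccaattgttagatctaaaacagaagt
Naaa and Ecrg4 held 1 match each and Veph1 held 0. Over stretches of the same length, 13.6% of 27025 RefSeq promoters examined held a match, as did 20.9% of the 9928 genes tested below that had a promoter in the table. The share was 19.7% of 807 genes called higher in members and 23.0% of 895 called lower, and 0 of the 10 most changed higher genes with a promoter there held a match. A match describes letters only and shows no binding.

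Markers of astroglia were then read. Only Aqp4 is free of the rule for members. Slc1a3 and the genes of the Gfap gate belong to it, so their values were not tested and support no label. These steps of the rule took out few cells, however. All 88 and 105 cells with at least 3 of the 4 marker genes had Slc1a3, and the limit on the Gfap set removed 0 and 4 cells. Slc1a3, required at 1 UMI, stood at 2278 and 2499 CPM in members, against 2425 and 2504 CPM in other astroglia, and every member had at least 4 UMIs of it. Aqp4 was detected in 63.2% and 60.6% of members at 191 and 271 CPM, against 613 and 589 CPM in other astroglia, where it was required. Gfap, whose intermediate filament marks astrocytes and late radial glia, was detected in 72.1% and 69.0% of members at 450 and 706 CPM, against 443 and 496 CPM in Gfap astroglia and 166 and 150 CPM in other astroglia. The remaining genes of that gate were near absent from members, with Serpinf1 at 0 and 6.28 CPM, Pla2g3 at 4.56 and 1.57 CPM and Nog at 9.12 and 21.97 CPM.

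**Figure D1:**
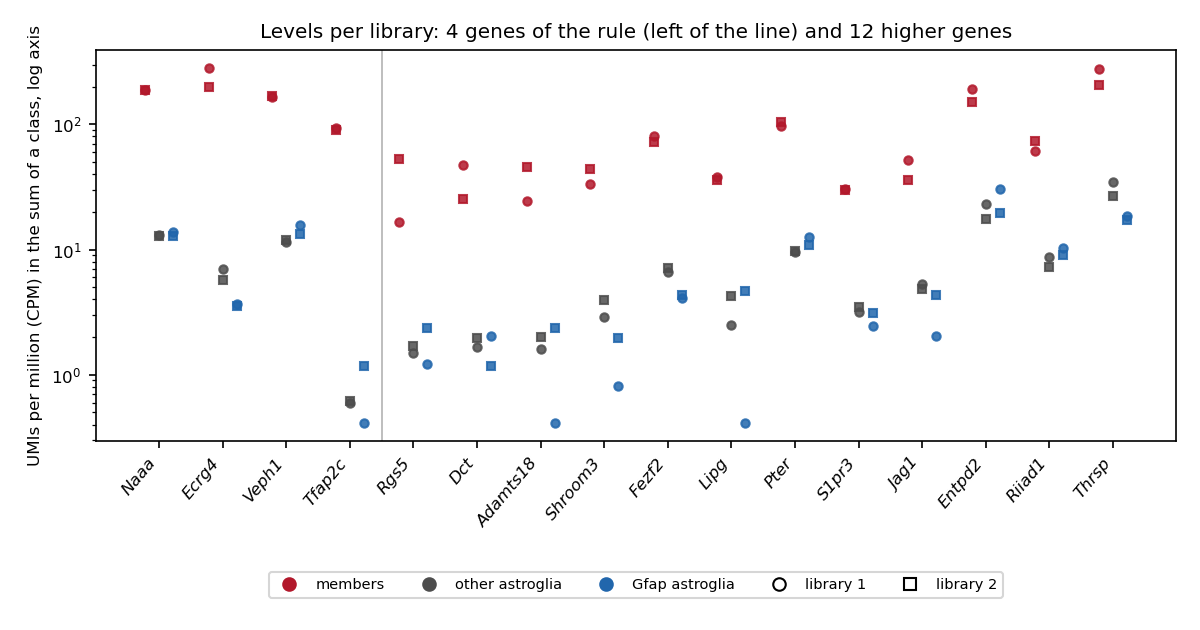
Levels (CPM, log axis) of the 4 marker genes, left of the line, and of the 12 most changed higher genes, right of it, in the summed cells of each class; circles are library 1 and squares library 2. Members (red) lie above other astroglia (grey) and Gfap astroglia (blue) in both libraries for all 16 genes, and Rgs5 shows the widest gap between the libraries of the members (16.7 and 53.3 CPM).

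The members' place among 6992 Slc1a3 cells was examined by clustering with the 12 genes of the rule kept out. These cells had at least 2 UMIs of Slc1a3 and at most 1 of Pdgfra. Of the members clustered, 49 of 62 (79.0%) and 49 of 63 (77.8%) fell into cluster 10, which held 36 of 1470 (2.45%) and 41 of 1455 (2.82%) of the other astroglia and 1 of 244 (0.410%) and 2 of 223 (0.897%) of the Gfap astroglia. The members made up only 14.5% and 15.5% of the 337 and 317 cells of that cluster, so most of its cells had fewer than 3 of the 4 marker genes detected or failed another step of the rule. Cluster 8 held 6 and 2 members and cluster 15 held 3 and 4. Both comparison classes were limited to at most 1 of the 4 marker genes, so cells of the cluster with more could not count in them. The gap between the shares of members and of those classes is therefore partly set by the gates. Clusters were not tested, since they are drawn from the same cells.

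**Figure D2:**
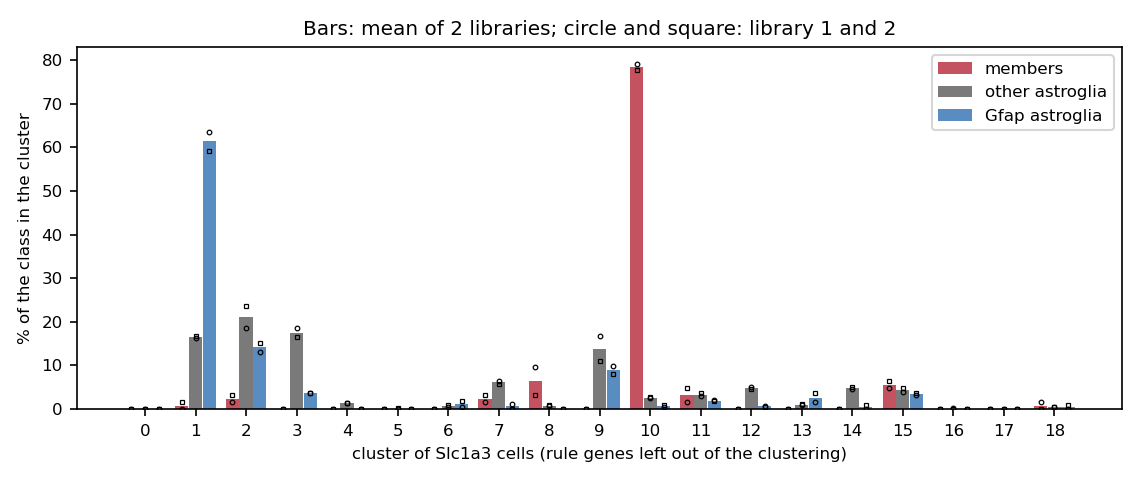
Share of each class (%, y axis) in each cluster of Slc1a3 cells (x axis); bars are means of the 2 libraries, circle and square the libraries. Members (red) stand at 79.0% and 77.8% in cluster 10, while Gfap astroglia (blue) stand mostly in cluster 1 and other astroglia (grey) are spread over several clusters.

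The members were then compared with other astroglia over all genes outside the rule, with edgeR's quasi-likelihood test on UMI counts summed per library and class. The marker genes had been picked with these cells in view, so the test is no test that the class exists. It sets each difference against the spread that remains among 10 sums of 5 classes after the library is fitted as a block. Neurons and oligodendrocyte precursors are among those classes, so the spread is not that of the members alone. At an adjusted p of 0.05, 1038 of 12788 genes tested (8.12%) were higher in members and 1170 (9.15%) were lower. Other astroglia hold cells in division and the members by rule do not, so a stricter comparison left out other astroglia with Mki67 or Top2a or with over 2 of the Gfap set; there 723 of 12710 genes (5.69%) were higher and 1200 (9.44%) lower. A matched comparison, chosen after the data were seen, also held the members to at least 2 UMIs of Aqp4 and Slc1a3 (30 and 33 cells); there 335 of 12691 genes (2.64%) were higher and 772 (6.08%) lower.

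**Figure D3:**
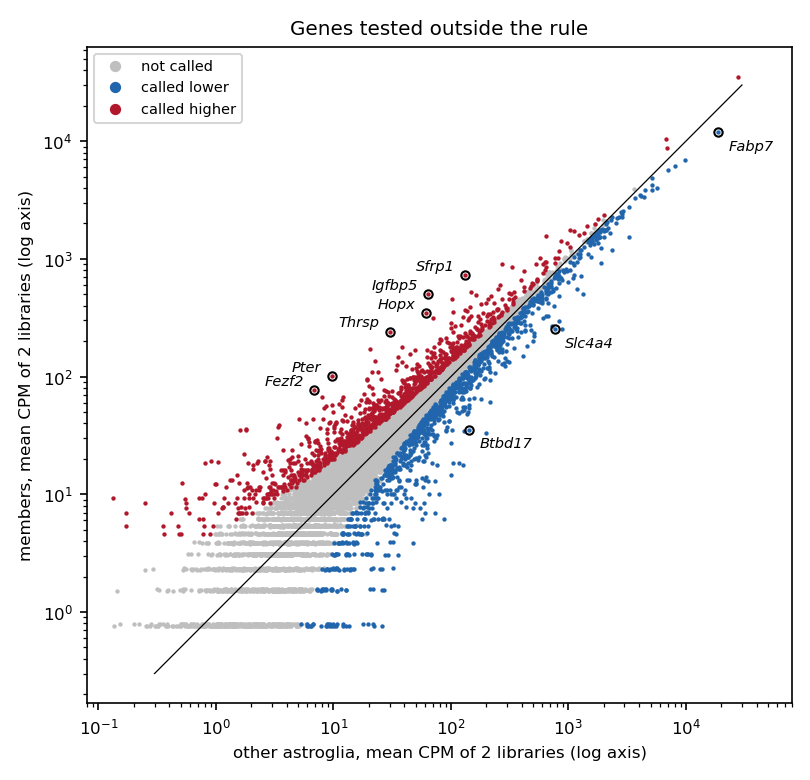
Mean CPM of 2 libraries in members (y axis) against other astroglia (x axis), both log axes, for genes tested; 193 genes with 0 UMIs in either class are not drawn. The 1038 genes called higher (red) and 1170 called lower (blue) lie on either side of the line of equal levels, with Sfrp1, Igfbp5 and Hopx far above it and Btbd17 and Slc4a4 below.

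The most changed higher genes, taken in order of fold among called genes of at least 30 CPM, included a dorsal forebrain regulator and several enzymes and cell surface proteins. Fezf2, a zinc finger transcription factor of dorsal telencephalic progenitors and deep-layer neurons, stood at 80.5 and 72.2 CPM in members, 6.58 and 7.08 in other astroglia and 20.02 on average in glutamatergic neurons of the same libraries (log2 fold change against other astroglia 3.39 ± 0.21 SE, adjusted p = 6.25e-14). It was detected in 45.6% and 40.8% of members against 5.57% and 6.60% of other astroglia. Pter, a phosphotriesterase-related gene, stood at 97.2 and 105 CPM against 9.61 and 9.70 (3.30 ± 0.19, adjusted p = 4.42e-15).

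Thrsp, a regulator of fat synthesis known from neural stem cells of the dentate gyrus, stood at 277 and 206 CPM in members against 34.3 and 26.6 (2.90 ± 0.12, adjusted p = 3.96e-18). Entpd2, which encodes an ectonucleotidase found on neural stem cells, stood at 191 and 152 CPM against 22.9 and 17.6 (3.00 ± 0.16, adjusted p = 1.06e-15). Its exons overlap Npdc1, so some reads may belong to that gene. The member sums of all 4 genes lay far above those of other astroglia, and the most that a single member held of the UMIs of any of them in its library was 16.0%, for Thrsp.

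The other 8 of the 12 were less abundant. Jag1, a ligand of Notch receptors, stood at 51.7 and 36.1 CPM against 5.34 and 4.82, and Shroom3, an actin regulator of apical constriction, at 33.4 and 43.9 CPM against 2.91 and 3.95. Dct, an enzyme of melanin synthesis, stood at 47.1 and 25.1 CPM against 1.66 and 1.95 and was seen in only 10 and 9 members. Rgs5, a regulator of G-protein signalling best known from pericytes, stood at 16.7 and 53.3 CPM against 1.48 and 1.69 and was seen in 8 and 19 members. Adamts18, Lipg, S1pr3 and Riiad1 had log2 fold changes of 4.17, 3.37, 3.09 and 2.98; exons of S1pr3 overlap Gm32834 and those of Riiad1 overlap Celf3. All 12 genes were also called higher in the stricter comparison, with log2 fold changes between 2.51 (Entpd2) and 4.28 (Dct). Rgs5 and Jag1 were not called when the members were held to all 4 marker genes, nor S1pr3 after thinning to 2000 UMIs.

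Because Rgs5 marks pericytes, the vascular and meningeal list was read beside it. Pdgfrb, a receptor of pericytes, was also higher (50.1 and 56.5 CPM against 18.6 and 18.8, log2 fold change 1.42 ± 0.21, adjusted p = 6.84e-06). Of the 12 genes of that list, Cldn5, Flt1, Kdr, Dcn, Vtn and Igf2 stood at 0 UMIs in both member sums, and the summed list stood at 88.1 and 129 CPM against 31.1 and 39.6. At least 3 different genes of the list were detected in 0 of 68 members of replicate 1 and in 4 of 71 of replicate 2. The part of vascular RNA in the level of Rgs5 was not tested.

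The 12 most changed lower genes were all genes of DNA synthesis and mitosis: Rrm2, Cenpe, Spc24, Spc25, Pbk, Cdca3, Birc5, Kif11, Cdca8, Knl1, Ccna2 and Clspn. Their direction follows from the rule, which took out members with Mki67 or Top2a but left 480 and 519 such cells among other astroglia. In the stricter comparison only Rrm2 was still called (log2 fold change -1.81 ± 0.40, adjusted p = 0.00118), while Kif11, Knl1 and Ccna2 had fold changes of the opposite sign, not called. Of the S phase list, 17 of 20 were lower at first, 4 of 20 in the stricter comparison (Mcm2, Mcm3, Mcm4 and Rrm2; median -0.32) and 3 of 20 in the matched one (median -0.74), with 0 higher in each. The G2 and M phase list gave 19 lower of 20 at first and 0 called of 15 and of 14 in the stricter and matched comparisons. The same rule applied there, after the data were seen, named Lmf1, Dcbld1, Lcat, Btbd17, Dbx2, Nebl, Mfhas1, Hbegf, Gabbr2, Fndc5, Sp5 and Tmem176a as the most changed lower genes, with log2 fold changes between -2.72 and -2.23. Lcat, an enzyme that esterifies cholesterol on lipoproteins, stood at 10.6 and 12.6 CPM in members against 63.6 and 58.6 in that comparison. Dbx2, a homeodomain transcription factor, stood at 15.2 and 9.41 CPM against 64.6 and 58.3, and Gabbr2, a subunit of the GABA-B receptor, at 9.12 and 9.41 CPM against 38.4 and 45.6.

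Division itself was read before the rule removed it. Among cells with at least 3 of the 4 marker genes and Slc1a3, 8 of 88 (9.09%, interval 4.01 to 17.1) and 12 of 103 (11.7%, 6.17 to 19.5) had a UMI of Mki67 or Top2a after thinning to 2000 UMIs, against 14.5% and 14.9% of other astroglia. As counted, the shares were 22.7% and 28.6% against 29.0% and 30.8%. Both values lay below those of other astroglia in both libraries, but each interval of the thinned share held the value of the other astroglia, so a difference was not detectable at this number of cells.

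The radial glia label was read against 24 radial glia and neural stem cell genes, all tested. Of them, 12 were higher in members and 8 lower, beside 8.12% and 9.15% of all genes. The stricter comparison gave 9 higher and 9 lower, beside 5.69% and 9.44% of all genes. The matched one gave 6 and 8, beside 2.64% and 6.08%. The median log2 fold change was 0.25 (0.06 in the stricter comparison), against -0.02 (-0.06) over all genes. The genes behind the radial glia label were split, so the class is called by its marker genes here. Counts of the other lists against other astroglia are to be read beside the same shares of all genes.

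Among the higher genes, Hopx, a homeodomain cofactor of outer radial glia and dentate stem cells, stood at 386 and 311 CPM in members against 66.6 and 56.3 (log2 fold change 2.41 ± 0.09, adjusted p = 2.21e-19). It was detected in 70.6% and 63.4% of members against 28.4% and 29.4% of other astroglia, or 44.1% and 39.1% against 10.9% and 9.19% after thinning. Pax6, a transcription factor of dorsal radial glia, stood at 389 CPM in both libraries against 149 and 141 (1.34 ± 0.08, adjusted p = 1.64e-14). Vim, the intermediate filament vimentin, stood at 1392 and 1431 CPM against 919 and 824 (0.61 ± 0.06, adjusted p = 1.47e-09). Fam107a, an outer radial glia gene, had a log2 fold change of 3.00 ± 0.50 at low levels (24.3 and 14.1 CPM against 2.31 and 2.21).

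Other radial glia genes were lower. Fabp7, the brain fatty acid binding protein of radial glia, stood at 11677 and 12346 CPM in members against 18927 and 18810 (-0.74 ± 0.05, adjusted p = 1.36e-12). Hes5, a Notch target that holds cells in the progenitor state, stood at 248 and 413 CPM against 704 and 586 (-1.06 ± 0.11, adjusted p = 3.11e-09). Ptprz1 and Tnc, a receptor phosphatase and a matrix protein of radial glia, had log2 fold changes of -0.60 and -0.63. Nes, the intermediate filament nestin, was not called (188 and 242 CPM against 206 and 229, adjusted p = 0.511). In all 3 comparisons Hopx, Pax6 and Vim were called higher and Fabp7, Hes5, Ptprz1 and Tnc lower. Exons of Hopx, Hes5 and Tnc overlap other annotated genes (Hopxos, Gm20421 and 8030451A03Rik).

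Of 16 dentate gyrus stem cell genes, 14 were tested, and 7 were higher and 3 lower (7 and 2 of 13 in the stricter comparison, 6 and 1 of 13 in the matched one), with a median log2 fold change of 0.72. Beside Thrsp and Riiad1, Sfrp1, a secreted Wnt antagonist, stood at 676 and 784 CPM in members against 120 and 142 (2.39 ± 0.07, adjusted p = 6.34e-23). Zbtb20, a transcription factor of the hippocampal primordium and of astrocytes, stood at 1390 and 1757 CPM against 566 and 720 (1.21 ± 0.05, adjusted p = 5.05e-18), and its exons overlap Gm9968. Lpar1, a lysophosphatidic acid receptor of dentate stem cells, had a log2 fold change of 2.60 ± 0.30, Vnn1 of 2.79 ± 0.45 and Emx1, a dorsal telencephalic transcription factor, of 1.24 ± 0.25. Lef1, a Wnt effector, was lower (1.52 and 4.71 CPM against 14.8 and 15.2), as was Ptn (-0.60 ± 0.05), a growth factor. Wnt8b, a ligand of the cortical hem, and Notum, a Wnt inhibitor, had 0 UMIs in the members; other astroglia held 5.58 and 5.23 CPM of Notum, at least 2.33-fold higher than a floor of 3 UMIs over both member sums. In the matched comparison Emx1 and Lef1 were not called (adjusted p = 0.163 and 0.193). Prox1, which specifies dentate granule neurons, was not called (10.6 and 10.98 CPM against 12.3 and 14.7).

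Transcription factors of radial glia, from a list of 26 genes with 23 tested, were mostly higher or not called: 13 were higher and 1, Rfx4, lower (11 and 1 in the stricter comparison, 6 and 1 in the matched one; median 0.37). Zfhx4 stood at 42.5 and 42.4 CPM in members against 9.85 and 13.6 (1.76 ± 0.23, adjusted p = 7.08e-07), and Dach1, a repressor of the retinal determination family, at 24.3 and 26.7 CPM against 7.24 and 8.21 (1.63 ± 0.33, adjusted p = 0.000369). Genes of regional identity gave 7 higher and 2 lower of 24 tested (median 0.23), 8 and 1 in the stricter comparison and 3 and 0 in the matched one. The 2 lower genes, 8.33% of the list, lay near the 9.15% lower among all genes. Zic1, a zinc finger transcription factor, stood at 31.9 and 39.2 CPM against 15.9 and 16.6, and Tshz2, among the lower genes, at 13.7 and 14.1 CPM against 34.7 in both libraries. Neither was called in the matched comparison (adjusted p = 0.890 for Zic1 and 0.0678 for Tshz2), and exons of Zic1 overlap Zic4.

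Genes of mature, parenchymal astrocytes were mostly lower. Of 27 tested, 17 were lower and 5 higher; 19 were lower and 3 higher in the stricter comparison, and 15 and 3 in the matched one, where both classes had at least 2 UMIs of Aqp4 but its level was not equalised. The medians were -0.44, -0.84 and -0.71. Slc4a4, the bicarbonate cotransporter of astrocytes, stood at 191 and 317 CPM in members against 708 and 815 (-1.68 ± 0.08, adjusted p = 1.72e-16). Btbd17 stood at 38.0 and 32.9 CPM against 150 and 134 (-2.09 ± 0.16, adjusted p = 1.08e-11). Aldh1l1, a folate enzyme used as a marker of astrocytes, stood at 146 and 201 CPM against 335 and 355 (-1.08 ± 0.10, adjusted p = 6.03e-10), with exons that overlap Gm15756 and Gm45901. Fgfr3, a growth factor receptor of astrocytes, had a log2 fold change of -1.35 ± 0.15 and Sparcl1, a secreted synapse-inducing protein, of -1.07 ± 0.06.

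Against this run, Clu, which encodes the chaperone clusterin, stood at 532 and 453 CPM in members against 173 and 155 (1.5 ± 0.08, adjusted p = 6.93e-16). Aldoc, a glycolytic enzyme, and Cst3, a protease inhibitor, were higher by 0.56 on the log2 scale each and were called higher in all 3 comparisons. Slc1a2, the main astrocytic glutamate transporter, and Glul, glutamine synthetase, were not called (918 and 1164 CPM against 853 and 1025, and 707 and 808 CPM against 705 and 687). In the stricter comparison both were called lower, by 0.25 and 0.23 on the log2 scale.

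Members with and without Aqp4 were set side by side, as a description. With an Aqp4 UMI (43 cells in each library) Slc4a4 stood at 237 and 387 CPM, and without (25 and 28 cells) at 86.1 and 181. Fezf2 ran the other way, at 60.8 and 54.5 CPM with Aqp4 and 127 and 107 without, as did Pter (78.2 and 73.5 against 142 and 167). Hopx and Pax6 overlapped between the groups, at 406 and 282 against 339 and 366 CPM for Hopx and 395 and 375 against 375 and 417 for Pax6. The cells without Aqp4 had somewhat fewer UMIs (medians 7717 and 7183 against 8873 and 8225), and the part of depth in these differences was not tested.

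Genes of glutamate and glutamine handling, a core task of mature astrocytes, gave 10 lower and 0 higher of 16 tested, 12 and 0 in the stricter comparison and 9 and 0 in the matched one, with medians of -0.59, -0.81 and -0.90. Grm5 and Grm3, the metabotropic glutamate receptors of astrocytes, stood at 50.1 and 72.2 CPM in members against 200 and 229 (-1.90 ± 0.14, adjusted p = 4.61e-12) and at 48.6 and 81.6 CPM against 171 and 186 (-1.55 ± 0.15, adjusted p = 1.24e-09). Slc38a3, a glutamine transporter, and Slc6a11, a GABA transporter, were each lower by 1.31 on the log2 scale.

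Among genes of connexins, adhesion and matrix, 10 of 19 tested were lower and 4 higher (10 and 2, then 7 and 0 in the stricter and matched comparisons; median -0.52). Ncan and Bcan, the proteoglycans neurocan and brevican, stood at 483 and 515 CPM in members against 1312 and 1357 (-1.51 ± 0.06, adjusted p = 1.32e-19) and at 550 and 560 CPM against 1235 and 1137 (-1.18 ± 0.06, adjusted p = 2.63e-16). Itga6, a laminin receptor subunit, stood at 38.0 and 64.3 CPM against 116 and 131.

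Signalling genes split by pathway. Of 10 Hedgehog genes tested, 6 were higher and 1 lower (4 and 1, then 2 and 1 in the stricter and matched comparisons), with a median log2 fold change of 0.98. Gas1, a co-receptor of Hedgehog ligands, stood at 593 and 444 CPM in members against 150 and 145 (1.73 ± 0.08, adjusted p = 5.21e-18). Cdon, another co-receptor, stood at 30.4 and 43.9 CPM against 14.2 and 16.5, and the effectors Gli3 and Gli1 at 76.0 and 115 CPM against 40.4 and 43.9 and at 16.7 and 26.7 CPM against 7.71 and 7.08. Ptch1, the receptor and a target of the pathway, was the lower gene (65.3 and 65.9 CPM against 91.5 and 97.6, -0.61 ± 0.14, adjusted p = 0.00171). Gas1 and Ptch1 kept their calls in the stricter and matched comparisons, Gli1 and Cdon lost theirs in the matched one (adjusted p = 0.270 and 0.140), and Shh had 0 UMIs in the members. Exons of Gas1, Gli3 and Gli1 overlap Gm48488, Gm6556 and Arhgap9, among others.

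Of 18 genes of the BMP and Id pathway tested, 7 were lower and 1 higher (7 and 1, then 6 and 1). The median was -0.51, and 0.01 in the matched comparison. Id1 and Id3, inhibitors of neurogenic transcription factors and targets of BMP signals, stood at 205 and 268 CPM in members against 521 and 507 (-1.21 ± 0.09, adjusted p = 1.91e-12) and at 691 and 1170.4 CPM against 1998 and 1808 (-1.12 ± 0.10, adjusted p = 1.46e-10). Id4 was the higher gene, at 404 and 416 CPM against 175 and 182 (1.11 ± 0.07, adjusted p = 1.92e-13), with exons that overlap A330033J07Rik and Gm49291. Chrdl1, a secreted BMP antagonist, stood at 10.6 and 15.7 CPM against 47.5 and 53.9.

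Notch genes gave 3 higher and 5 lower of 17 tested (median -0.43). Beside the ligand Jag1, the receptor Notch2 was higher, at 132 and 135 CPM against 38.4 and 38.6 (1.71 ± 0.13, adjusted p = 1.34e-11), and so was the target Hes1 (252 and 240.1 CPM against 198 and 156, 0.39 ± 0.09), which was not called in the stricter comparison (adjusted p = 0.669). The targets Hes5 and Hey2 were lower. In the stricter and matched comparisons the list gave 2 higher and 5 lower, then 2 and 4, and Hey2 was not called in the matched one (adjusted p = 0.218). Hey2 stood at 13.7 and 18.8 CPM against 35.5 and 37.0. Wnt genes gave 5 higher and 6 lower of 24 tested (median -0.25): the receptor Fzd8 stood at 54.7 and 72.2 CPM against 11.7 in both libraries (2.34 ± 0.21, adjusted p = 2.17e-10), and the feedback inhibitors Nkd1 and Axin2, both targets of the pathway, at 12.2 and 14.1 CPM against 45.1 and 42.1 and at 28.9 and 31.4 CPM against 49.4 and 50.0.

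FGF and EGF genes gave 8 lower and 2 higher of 18 tested (median -0.44). Hbegf, a ligand of the EGF receptor, stood at 15.2 and 9.41 CPM in members against 50.5 and 50.9 (-2.12 ± 0.28, adjusted p = 7.14e-07), and Egfr itself at 51.7 and 32.9 CPM against 90.8 and 100 (-1.26 ± 0.18, adjusted p = 2.75e-06). Lrig1, a negative regulator of EGF receptors whose exons overlap Slc25a26, had a log2 fold change of -1.63 ± 0.18, and Etv4 and Dusp6, targets of FGF signals, of -1.34 each. Fgfr2, with exons that overlap Ctbp2, and Fgfr1 were the higher genes, by 0.77 and 0.55 on the log2 scale. The list gave 8 lower and 2 higher in the stricter comparison and 6 and 1 in the matched one, where Fgfr1 lost its call (adjusted p = 0.0554).

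Naaa acts in the breakdown of N-acylethanolamines, so genes of that route and of endocannabinoids were read as a list. Of 15 tested, 3 were higher and 5 lower (3 and 6, then 1 and 5; median -0.32). Napepld and Abhd4, which take part in making N-acylethanolamines, stood at 18.2 and 10.98 CPM in members against 3.5 and 3.95 (1.88 ± 0.45, adjusted p = 0.00277) and at 149 and 140 CPM against 68.7 and 66.6 (1.01 ± 0.13, adjusted p = 4.29e-07). Mgll, the monoacylglycerol lipase, was the third, by 0.71 on the log2 scale. Faah, the other hydrolase of N-acylethanolamines, was not called and stood at 3.04 and 0 CPM in members, and Fabp5, an intracellular carrier of fatty acids, was lower (1167 and 1879.6 CPM against 3385 and 3202, -1.20 ± 0.09). Napepld and Mgll were not called in the matched comparison (adjusted p = 0.0573 and 0.0826).

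Genes of immature astroglia were divided, with 2 higher and 5 lower of 10 tested (median -0.41). The insulin-like growth factor binding proteins went opposite ways: Igfbp5 stood at 459 and 541 CPM in members against 62.6 and 66.2 (2.87 ± 0.10, adjusted p = 1.22e-20), and Igfbp2 at 222 and 290 CPM against 885 and 891 (-1.89 ± 0.09, adjusted p = 1.26e-16). Olig1, a transcription factor of oligodendrocyte precursors and some glial progenitors, stood at 377 and 215 CPM against 830 and 841 (-1.58 ± 0.10, adjusted p = 3.66e-14). The 3 genes kept their calls in the stricter and matched comparisons.

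**Figure D4:**
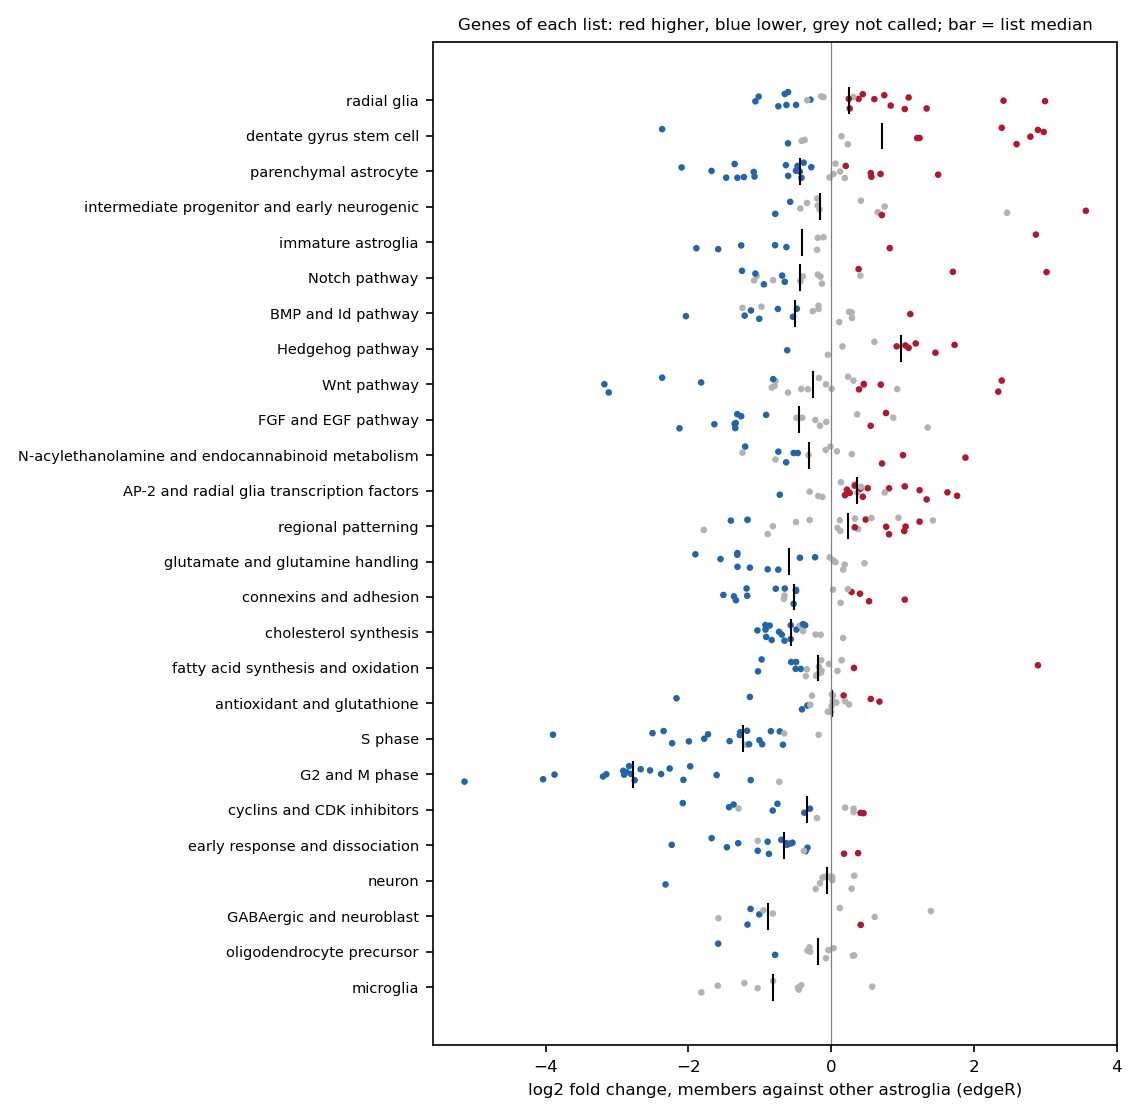
Log2 fold change (x axis) of each tested gene, members against other astroglia, in the 26 lists drawn (y axis); red points were called higher, blue lower and grey not called, and the black bar is the median of the list. The 5 list genes with 0 UMIs in the members are left out of the points. Radial glia genes lie on both sides of 0, Hedgehog genes mostly above it, and genes of astrocytes, glutamate handling and cholesterol synthesis mostly below it; the lists of S phase and of G2 and M phase hold the genes of division that the rule bears on.

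Against the Gfap astroglia, which by rule hold no cells in division, 690 of 12490 genes tested (5.52%) were higher in members and 1002 (8.02%) lower. The members are the same cells as in the comparison with other astroglia, so the fits are not independent. The 12 most changed higher genes again held Shroom3, Adamts18, Dct, Rgs5, Fezf2, Lipg, Jag1, Thrsp and S1pr3, with log2 fold changes of 3.29 to 4.64, and also Ptgds, Tspan18 and Col4a4. Ptgds, the prostaglandin D synthase, stood at 42.5 and 58.1 CPM in members against 4.097 and 3.53 in Gfap astroglia (3.58 ± 0.35, adjusted p = 1.55e-09). Col4a4, a basement membrane collagen, stood at 44.1 and 43.9 CPM against 6.15 and 3.13 (3.11 ± 0.40, adjusted p = 3.47e-07). Thrsp stood at 18.4 and 17.2 CPM and Fezf2 at 4.097 and 4.31 CPM in Gfap astroglia.

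The 12 most changed lower genes included H2-Ab1, H2-Aa, H2-Eb1 and Cd74, whose products serve antigen presentation; no list of such genes was counted or tested. H2-Ab1 stood at 1.52 and 12.6 CPM in members against 88.9 and 98.7 in Gfap astroglia (-3.89 ± 0.34, adjusted p = 1.57e-10) and was seen in 1 and 4 members, against 23.2% and 33.2% of Gfap astroglia. These antigen presentation genes were also seen less often in other astroglia than in Gfap astroglia, so low detection is not particular to the members. In other astroglia H2-Ab1 was seen in 7.26% and 8.91% of cells and H2-Eb1 in 3.99% and 4.04%. Cd74 was seen there in 3.51% and 3.33% and H2-Aa in 3.15% in both libraries. The 2 UMIs of Cd74 in members gave 3.17% of its level in Gfap astroglia (exact Poisson interval of the count 0.384 to 11.4%). Both came from 1 member of replicate 2, and the interval, which takes UMIs as independent, does not allow for that. The microglia list stood at 11.5 and 243 summed CPM in the Gfap astroglia and at 187 and 28.2 in members, and the part of microglial RNA in these levels was not tested. Mylip, a ubiquitin ligase, had 0 UMIs in members against 36.1 and 33.3 CPM in Gfap astroglia, at least 15.0-fold higher than a floor of 3 UMIs over both member sums. Tagln, an actin-binding protein, Emp1, Nrp2, Cidea, Col23a1, Kcnj6 and Inpp5j completed the 12; exons of Inpp5j overlap Pla2g3, a gene of the rule.

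Counts of the lists were taken again, to be read beside the 5.52% of all genes higher and 8.02% lower in this comparison. Radial glia genes gave 11 higher and 8 lower of 24, dentate stem cell genes 7 and 4 of 14, Hedgehog genes 5 and 0 of 10, BMP and Id genes 1 and 9 of 18, parenchymal astrocyte genes 3 and 12 of 27, and glutamate handling 0 and 9 of 16. Some genes named before were not called here, among them Ptch1 (-0.31, adjusted p = 0.260), Egfr (-0.47, adjusted p = 0.192), Ptprz1 (-0.06, adjusted p = 0.455) and Aldoc (0.01, adjusted p = 0.950). Nes, not called against other astroglia, was higher against Gfap astroglia (0.44, adjusted p = 0.00553). Hopx was higher here too, with 105 and 125 CPM in Gfap astroglia (1.46, adjusted p = 1.82e-12).

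Cells just outside the rule, with exactly 2 of the 4 marker genes and all else met, numbered 161 and 158. Fezf2 stood at 45.7 and 47.9 CPM in them, 78.5 and 63.3 in members with 3 genes, and 86.2 and 106 in members with 4. Pter stood at 45.7 and 44.9, then 99.1 and 94.9, then 91.9 and 145 CPM, and Hopx at 242 and 178, then 376 and 308, then 414 and 319 CPM. Aldh1l1 stood at 229 and 242 CPM outside and at 136 and 202, then 172 and 198 CPM inside. The excluded cells lay between other astroglia and the members with 3 genes for each of these genes. No test was made of these values.

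**Figure D5:**
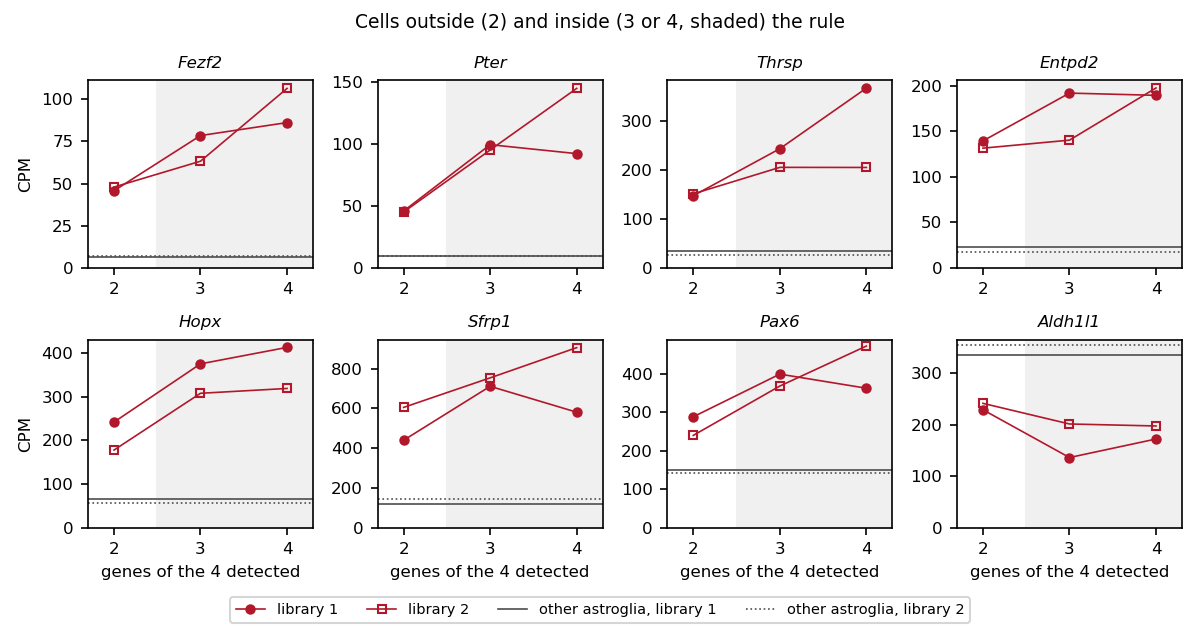
CPM (y axis, from 0) of 8 genes in cells with exactly 2, 3 or 4 of the marker genes detected (x axis), the rest of the rule met; filled circles are library 1 and open squares library 2, the shaded part holds the members, and grey lines give other astroglia in library 1 (solid) and 2 (dotted). Cells with 2 genes stand between other astroglia and members, as for Fezf2 at 45.7 and 47.9 CPM.

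Markers of other cell types in the members were read last. Ependymal genes summed to 39.5 and 36.1 CPM in members against 12.6 and 11.6 in other astroglia. Tmem212, Ccdc153, Dnah6, Mcidas and Deup1 stood at 0 UMIs in members, and Tmem212, Ccdc153 and Deup1 also in both libraries of other astroglia. Rsph1 was called higher (13.7 and 6.28 CPM), though not in the matched comparison (adjusted p = 0.135). Foxj1, which directs the making of motile cilia, was not called (15.2 and 18.8 CPM against 8.54 and 8.003, adjusted p = 0.0806). Choroid plexus genes summed to 3.04 and 7.84 CPM in members against 2.14 and 2.21 in other astroglia. Folr1, Kl, Clic6, Kcne2, Aqp1 and Slc4a5 stood at 0 in members, and Folr1 and Slc4a5 also in other astroglia. Genes of oligodendrocyte precursors summed to 1398 and 703 CPM, against 1583 and 1698 in other astroglia and 7309 and 7343 in the precursors, and 6 and 8 members had at least 2 UMIs of Pdgfra. Pdgfra itself stood at 232 and 91.0 CPM, with 50.3% of its UMIs in replicate 1 from a single member. Neuronal genes summed to 673 and 654 CPM against 602 and 678. Of the members, 11.8% and 11.3% were marked as doublets by Scrublet, against 12.9% and 14.4% of other astroglia and 7.38% and 7.37% of all kept cells. They were left in, and the counts without them stand with the other settings.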

How the data were processed

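Single-cell RNA-seq UMI counts were read from 2 libraries. Per the file headers, the deposited counts are filtered matrices from Cell Ranger 6.0.2. The submitters' processing notes also name mm10, R 4.1.0 and Seurat 4.1.0. The gene annotation release and the strand setting are not given in the sources used here. The files hold 13858 and 14513 barcodes, 32285 genes, and 97091962 and 108903409 UMIs. The libraries shared 62 barcodes, 1 of them a member's.

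Barcodes under 500 genes (441 and 657) or over 10% mitochondrial UMIs (2189 and 2891) were left out. Raw counts of the kept cells were summed per library and class. Sums of 5 classes (members, the class compared, oligodendrocyte precursors, glutamatergic and GABAergic neurons) were fitted together, 10 sums in all, with edgeR 4.0.16 in R 4.3.3 (quasi-likelihood test, TMM, filterByExpr, the library as a block, as classes of 1 library share its sort). Benjamini-Hochberg adjusted p-values cover all genes tested, without the 12 genes of the rule. Intervals of shares are exact Clopper-Pearson, at 95%. Clusters came from scanpy 1.11.5 (Leiden, resolution 1.0, 30 components, 15 neighbours). The scripts were tested on simulated counts.

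Genes named were the 12 most changed each way among called genes with at least 30 CPM in the higher class and the same direction in both libraries, without ribosomal, mitochondrial and unnamed gene models, and up to 4 called genes of each list, or more where a list is described in full. The members and all lists were chosen with earlier results of these data known, so no count of a list is independent support. Alternatives were DESeq2 1.42.0, RLE scaling, no low-count filter, no block, 2 classes only, thinning, doublet removal, other rule limits and leaving out each library. Exons of Lef1, Axin2, Mgll, Fgfr1, Olig1, Notum, Tagln, Kcnj6, Mfhas1 and Tmem176a, like those of genes marked in the text, overlap other annotated genes, so their counts are less certain. Barcodes marked as doublets were kept in the main results.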

Additional observations from a re-analysis of the deposited data

How the results depend on the processing

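Against other astroglia, 2208 genes were called in all. The count fell to 696 when members had to carry all 4 marker genes (17 and 16 cells), to 718 after thinning to 2000 UMIs, to 1107 in the matched comparison, and to between 1272 and 1406 without 1 library of both classes, where the lone sums are assumed to vary like the other classes. Under DESeq2, RLE scaling, a 5% mitochondrial limit, no low-count filter, only 2 classes, no doublets and no cells with Pdgfra it lay between 1855 and 2797. Without the low-count filter 647 genes were called higher and 2150 lower. Against Gfap astroglia, 1692 genes were called, 666 with all 4 marker genes, 586 after thinning, and 976 to 1145 without 1 library. Fewer cells and fewer UMIs are part of how these settings are built. Without the replicate block, which pairs the sums of a library, the counts were 1672 and 1313.

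Some of the 12 genes of division reversed, without passing the threshold, once dividing cells were taken out of the other astroglia: Kif11 to 0.11, Knl1 to 0.67 and Ccna2 to 0.47 in the stricter comparison, and Cdca8 to 0.094 and Ccna2 to 0.73 in the matched one. Against Gfap astroglia Fgfr1 reversed to -0.093 after thinning.

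The members' mean share of kept cells, 0.627%, became 2.06% with 2 marker genes required, 0.149% with 4, 0.676% with at least 1000 genes per cell, 0.759% with a 5% mitochondrial limit and 0.114% when the rule was applied after thinning, so depth limits which cells are found. It ran from 0.606% to 0.648% over single libraries. The mean thinned share with Mki67 or Top2a, 10.4%, became 25.6% unthinned and 4.05% with at least 2 UMIs asked. The mean share of members in the cluster holding most of them, 78.4%, became 84.9% without doublets.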

Other observations

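Genes of cholesterol synthesis were mostly lower in the members. Of 20 tested against other astroglia, 15 were lower and 0 higher. Their median log2 fold change was -0.57, against -0.02 over all genes. The counts were 15 and 0 in the stricter comparison, 13 and 0 in the matched one, and 15 and 0 against Gfap astroglia. Fdps, which makes farnesyl diphosphate, stood at 234 and 267 CPM in members against 503 and 457 in other astroglia (-1.03 ± 0.09, adjusted p = 8.54e-11 by edgeR's quasi-likelihood test). Mvk and Mvd, kinase and decarboxylase of the mevalonate route, had log2 fold changes of -0.92 and -0.91, and Cyp51, a sterol demethylase whose exons overlap Akap9, of -0.92. In fatty acid synthesis and oxidation, 2 of 20 tested were higher, Thrsp among them, and 6 lower, beside 8.12% and 9.15% of all genes. The stricter comparison gave 1 and 9 and the matched one 1 and 6. Scd1, a desaturase, stood at 28.9 and 34.5 CPM against 58.1 and 63.2. Fasn, the fatty acid synthase, was not called (108 and 92.6 CPM against 105 and 108).

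Genes of the early response to stimulation, which dissociation of tissue also raises, gave 14 lower and 2 higher of 18 tested against other astroglia, 14 and 1 in the stricter comparison, 14 and 0 in the matched one, and 15 and 0 against Gfap astroglia. Ier2 stood at 191 and 249.5 CPM in members against 535 and 484 (-1.30 ± 0.09, adjusted p = 1.22e-12 by edgeR's quasi-likelihood test), and Klf2, Ier3 and Egr2 had log2 fold changes of -1.67, -1.46 and -2.23. The part of dissociation in these levels was not tested.

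Antioxidant and glutathione genes gave 3 higher and 4 lower of 19 tested, beside 8.12% and 9.15% of all genes. The stricter comparison gave 2 and 7. The matched one gave 1 and 3, beside 2.64% and 6.08% of all genes. Against Gfap astroglia 2 were higher and 7 lower. Prdx6, a peroxiredoxin, stood at 886 and 924 CPM against 555 and 509 (0.68 ± 0.06), and Slc7a11, the cystine transporter, at 24.3 and 36.1 CPM against 60.0 and 64.7 (-1.14 ± 0.21). Among genes of intermediate progenitors, Eomes, their defining transcription factor, was called higher at 4.56 and 39.2 CPM against 1.90 and 1.54, and 1 member held 92% of its UMIs in replicate 2. In the matched comparison it was not called (adjusted p = 0.814). The list of intermediate progenitor genes gave 2 higher and 2 lower of 13 tested against other astroglia. The counts were 3 and 2 in the stricter comparison, 0 and 2 in the matched one, and 3 and 2 against Gfap astroglia. In the matched comparison 2.64% of all genes were higher, so 0 of 13 carries little information.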
